A study of Mus musculus with 4 samples.

Results

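Spinal cords of mice with AT-EAE were measured on 2 arrays, each comparing a pair of extracts of the same disease group, and these arrays are described here across genes. They were chosen by their label and are 2 of the 4 arrays of the study. Of the 10225 genes on the array design, 7489 had a value on at least 1 of them. AT-EAE stands for experimental autoimmune encephalomyelitis by adoptive transfer, in which T cells reactive to myelin are given to a recipient. The mice were adult SJL/J females, and the other 2 arrays held cords of control mice of the same strain, sex and age class. Each extract was total RNA from a pool of the cords of 2 mice, so a single mouse cannot be read from it. The sources used here do not give the cells transferred, the time after transfer, the clinical scores or the handling of the control mice.

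Each array had 2 colours and carried 1 extract in each channel. AT-EAE array 1 carried extracts 1 and 2, and AT-EAE array 2 carried extracts 3 and 4, so that 4 extracts stood for the group. The deposited value of a spot was taken as the log2 ratio of the channels. It measures how far 2 AT-EAE extracts differed, together with dye and spot noise, and it holds no information on whether a transcript was more or less abundant in AT-EAE than in control cord. The sources used here give neither the channel in the numerator nor the base of the logarithm, and the extract numbers are arbitrary, so a sign has meaning only against other genes of that array. The spots of a gene that had values were averaged into its ratio, and its deviation is that ratio minus the median of the genes on that array. Each pair of extracts was measured once, and the number of arrays limits the precision.

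In EAE, T cells, monocytes and other blood leukocytes enter the spinal cord, mostly through the meninges and the white matter, and resident microglia and astrocytes become reactive. Antigen is presented to the infiltrating T cells on MHC class II molecules, and interferon from these cells induces class I and class II presentation in the tissue. The lesions differ in number and place between animals.

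Markers of neurons, astrocytes, oligodendrocytes and endothelium were mostly measured on both AT-EAE arrays, beside 54.0% of all genes. The lymphocyte markers on the design were few, and most were not. Of the markers of the design, 4 of 5 for neurons (Nefl, Nefm, Tubb3 and Map2), 5 of 6 for astrocytes, 2 of 2 for oligodendrocytes (Mbp and Cnp) and 2 of 2 for endothelium had values on both. For microglia and macrophages this held for 4 of 7, namely Tyrobp, C1qa, C1qb and Ctss, and for neutrophils for 2 of 4, Mpo and Ltf. Both counts lie near the share of all genes. The T cell marker on the design, Cd4, had no value on any array, and of 3 B cell markers only Ms4a1 had values on both AT-EAE arrays. The muscle marker Ckm had values on the control arrays and none in AT-EAE. None of the markers chosen for motor neurons or for Schwann cells was on the design. In these bulk extracts, fewer cells of a type and less RNA per cell cannot be told apart.

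The MHC class II list had the lowest median deviation of the lists with at least 5 genes on array 1, -0.28, and 2 promoters of its genes are shown for that reason. Of the 8 genes of the list, 6 matched a RefSeq promoter window (GRCm38.p6, 250 bases before to 50 after the gene start). The letters CTGATTGG, a Y box holding the inverted CCAAT, were searched on both strands. They were found in 3 of the 6, H2-Aa, H2-Eb1 and H2-Oa, and in 4.10% of all 32851 windows, 1346 in number. The 60 bases around them in the genes of the alpha chain H2-Aa (chr17:34287841-34287900, minus strand) and the beta chain H2-Eb1 (chr17:34305779-34305838, plus strand) read 5′ to 3′, with the motif in capitals, as follows.
H2-Aa: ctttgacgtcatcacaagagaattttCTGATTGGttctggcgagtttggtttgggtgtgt
H2-Eb1: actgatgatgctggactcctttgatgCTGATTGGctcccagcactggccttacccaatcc
The motif began 51 bases before the start of H2-Aa and 62 before that of H2-Eb1. The match is a description of these letters.

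Values were present for different numbers of genes on the AT-EAE arrays, and the genes of array 2 were nearly all contained in those of array 1. Array 1 held a ratio for 7398 genes and array 2 for 5616. Both held one for 5525 genes, 54.0% of the design, array 1 alone for 1873, array 2 alone for 91 and neither for 2736. Thus 98.4% of the genes of array 2 were also measured on array 1, but 74.7% of those of array 1 on array 2. The share of genes with a value was 63.6% ± 12.3 (SD, n = 2) over the AT-EAE arrays and 83.2% ± 4.36 (SD, n = 2) over the control arrays. The difference of -19.5 percentage points had a 2-sided exact permutation p = 0.33, the smallest that 4 arrays allow. The filter that removed values was the authors' own, and the sources used here do not give it.

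The number of spots of a gene moved with its presence. Among the 5159 genes with 1 spot, 57.5% had a value on AT-EAE array 1 and 38.8% had one on array 2. Among the 264 genes with at least 5 spots, 100% and 92.4% did. The order of the arrays was the same among genes with 1, 2, 3 and 4 spots, with control array 1 highest and AT-EAE array 2 lowest.

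**Figure D1:**
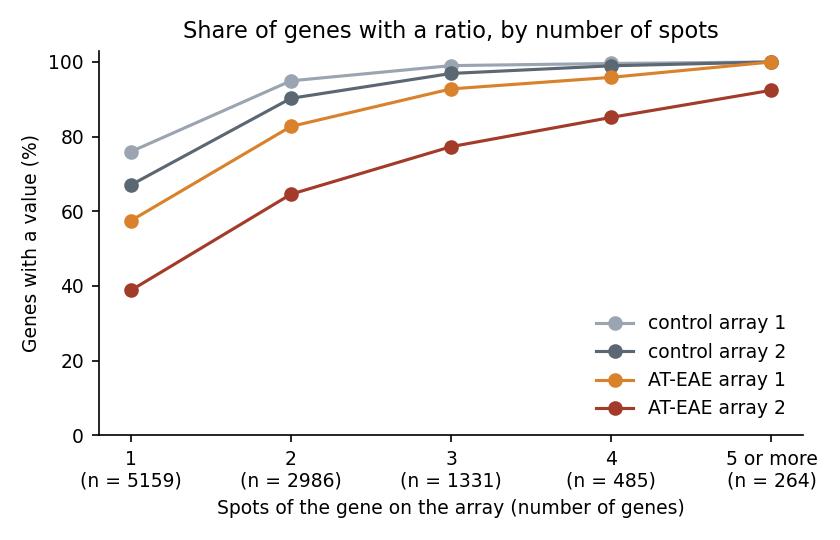
Share of genes with a ratio (vertical axis, percent) against the number of spots of the gene on the design (horizontal axis), 1 line for each of the 4 arrays. AT-EAE array 2 is the lowest line throughout, from 38.8% of genes with 1 spot to 92.4% of genes with at least 5.

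Gene families differed widely in presence. Ribosomal protein genes had values on both AT-EAE arrays for 59 of 63 members (93.7%), and heat shock and chaperone genes, whose products fold other proteins, for 27 of 29 (93.1%). Subunits of oxidative phosphorylation, the respiratory chain and ATP synthase, had both values for 60 of 70 (85.7%). Those of the proteasome, which degrades tagged proteins, had both for 31 of 38. Zinc finger protein genes of the Zfp symbols had both values for 57 of 166 (34.3%) and neither for 66, and genes of ependyma and cilia for 5 of 14 (35.7%). Cytokine and chemokine genes had both for 7 of 17, T cell genes for 5 of 10 and B and plasma cell genes for 3 of 10, beside 54.0% of all genes.

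Values on both control arrays and on neither AT-EAE array were found for 935 genes, 9.14% of the design. The reverse held for 13 genes (0.127%). Rules on the number of spots left fewer. Of 2080 genes with at least 3 spots, 11 had a value on all spots in both control arrays and on none in AT-EAE: Strn with 4 spots, and Cbfa2t2, Ell2, Iars2, Kank2, Kif3b, Plekha5, Ppp2r3c, Rif1, Trub1 and Uckl1 with 3 each. Kif3b encodes a motor subunit of transport in cilia and axons, and Iars2 the mitochondrial isoleucyl-tRNA synthetase. In the other direction, by a looser rule, 3 genes with at least 2 spots had a value on some spot of both AT-EAE arrays and on neither control array. These were the interferon-induced GTPase gene Iigp1, the RNA sensor gene Tlr7 and Zfp36, whose product destabilises cytokine mRNAs. On AT-EAE array 2, Iigp1 had a value on 2 of 3 spots, Tlr7 on 1 of 2 and Zfp36 on 1 of 3. Their presence is no measure of level, since the rule for a missing value is unknown.

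Genes that were measured on array 1 and missing on array 2 had wider ratios on array 1. Their median absolute deviation from the array median was 0.139, against 0.111 for the genes measured on both. Among genes with 1 valued spot the medians were 0.140 for 1610 genes and 0.122 for 2983.

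The size of the ratios was larger on array 2 over the bulk of genes. The spread scaled from the median absolute deviation to that of a normal distribution, here MAD-SD, was 0.174 on array 1 and 0.33 on array 2. Within 0.32 of the array median lay 88.9% of the genes of array 1 and 66.9% of those of array 2. The mean MAD-SD was 0.253 ± 0.112 (SD, n = 2) in AT-EAE and 0.202 ± 0.037 (SD, n = 2) in control, a difference of 0.0515 that lay within the spread of the arrays (exact permutation test, 2-sided, p = 1). Without AT-EAE array 2 the difference was -0.028.

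Array 1 had a narrow centre and a long lower tail, and array 2 was wider and more even. Genes at least 2 MAD-SD from the median are called apart, a distance of 0.348 on array 1 and 0.666 on array 2. On array 1, 496 genes were apart on the low side, 6.7% of those measured, and 185 on the high side, 2.5%. Array 2 had 192 low (3.42%) and 171 high (3.04%). The skewness was -2.05 and -0.255.

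The largest ratios rested mostly on single spots. An absolute ratio of at least 1, a 2-fold difference if the base was 2, was found for 27 genes on array 1, 25 of them negative, and for 60 on array 2, 44 of them negative. Of these, 23 (85.2%) and 55 (91.7%) genes had 1 valued spot, beside 62.1% and 70.8% of all genes measured on these arrays. The 4 remaining genes of array 1, Abhd13, Cbfa2t3, Ccdc102a and Ocrl, each combined a spot at -3.31 or lower with one between -0.30 and 0.03. For example, the spots of Cbfa2t3, a transcriptional corepressor, were at -4.27 and -0.06. Of the 5 on array 2, Actb (cytoplasmic beta-actin) and Slc25a5 (a mitochondrial ADP/ATP carrier) had every spot past the distance that counts as apart, and Cbx7, Cnppd1 and Eny2 did not. Abhd13, Ccdc102a, Ocrl and Eny2 were named after their values were seen.

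Sister spots, the spots assigned to 1 gene, followed each other weakly. Of the 18511 spots with 1 gene, 84 repeated the clone accession of another, so most sister spots carried different accessions. Clone sequences were not compared. Across 2805 genes with at least 2 valued spots on array 1, the intraclass correlation of sister spots was 0.118, and across 1638 genes on array 2 it was 0.161. The standard deviation within genes was 0.243 and 0.361, against 0.258 and 0.395 over the same spots. These correlations are across spots that share array, channels and normalization, and genes are not independent replicates. For spots that were far out, the mean of the sisters lay on the same side for 414 of 673 spots (61.5%) on array 1 and 178 of 250 (71.2%) on array 2. The SD between spots was 0.302 ± 0.084 (SD, n = 2) in AT-EAE and 0.259 ± 0.030 (SD, n = 2) in control, a difference of 0.0429 within the spread of the arrays (exact permutation test, 2-sided, p = 0.667).

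Spots whose numbers differed by 26 resembled each other more than spots of the same gene did. The correlation between a spot and the one 26 numbers later was 0.228 over 10342 pairs on array 1 and 0.312 over 5554 pairs on array 2, the highest of the 1299 steps examined. It was 0.210 and 0.218 on the control arrays, also the highest there. The median ratio moved with the place in this cycle of 26 numbers. It was -0.22 on array 1 and -0.37 on array 2 at the first place, 0.040 and -0.025 over places 2 to 18, and -0.072 and -0.188 over places 19 to 26. The sources used here do not give the layout of the array, so what the cycle stands for was not tested.

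**Figure D2:**
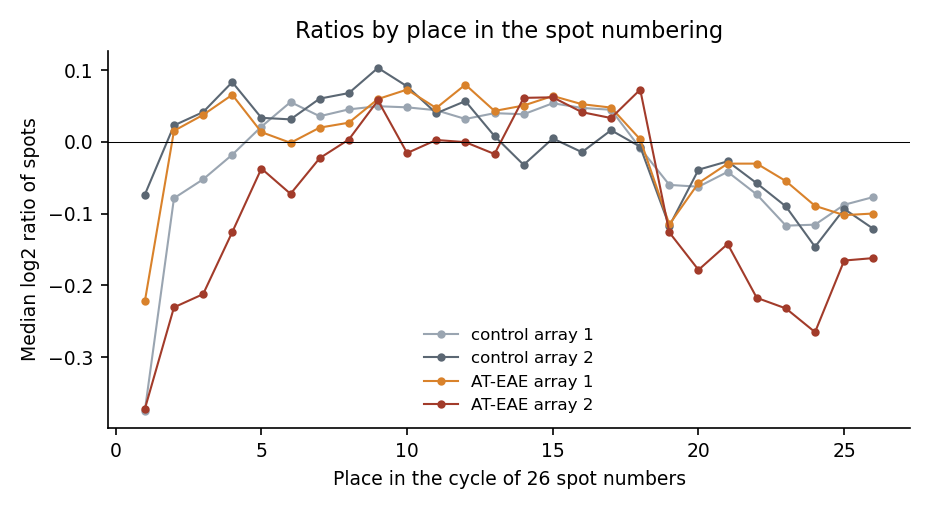
Median log2 ratio of spots (vertical axis) by place in the cycle of 26 spot numbers (horizontal axis), 1 line for each of the 4 arrays. The first place lies lowest on AT-EAE array 1, at -0.22, and on AT-EAE array 2, at -0.37, and the median over places 19 to 26 lies below that over places 2 to 18 on both.

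Genes whose sister spots all lay on 1 side were a minority. Among genes with at least 3 valued spots, all spots lay on 1 side of the array median for 248 of 865 genes (28.7%) on array 1 and 153 of 430 (35.6%) on array 2. On the control arrays the shares were 21.4% and 32.9%. Over the 92 genes with at least 4 valued spots on both AT-EAE arrays, the mean SD between spots ran from 0.099 to 0.510, with a median of 0.237. The closest spots were those of Rpsa, Hspd1, Hnrnpa1, Ankrd46 and Rpl15, and the widest those of Wnk1, Lamc1, Uqcrc2, Usp9x and Ppm1a. The 4 spots of Hnrnpa1, an RNA-binding splicing factor, were at 0.07, 0.28, 0.24 and 0.13 on array 1 and at 0.46, 0.71, 0.64 and 0.60 on array 2. Those of Uqcrc2, a core subunit of respiratory complex III, were between 0.0098 and 0.44 on array 1 and at -0.57, 0.72, -0.32 and 1.00 on array 2. Hnrnpa1 was thus above the array median on every spot of both arrays, and the spots of Uqcrc2 shared a side on array 1 and not on array 2.

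The fibrillar collagen gene Col3a1, made by fibroblasts of meninges and vessels, was the clearest opposite gene. Its 3 valued spots read -0.59, -0.75 and -0.82 on AT-EAE array 1, against 0.88, 1.01 and 0.96 on AT-EAE array 2. Their means were -0.72 and 0.95, and on the control arrays the gene was at -0.26 and -0.09. The groups of spots of the 2 AT-EAE arrays did not overlap, and all lay apart from the array median. Its ratio was thus far from that of the bulk of genes on both arrays and even over its spots. A dye effect of the gene was not tested, and the sides are as deposited.

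Actb had the highest mean on array 2 among genes with at least 3 spots on 1 side. It was at 1.02, 0.68 and 1.36 on its 3 spots there, and at -0.12, 0.01 and 0.10 on array 1. The GTPase gene Cdc42, which organises actin, was at 0.86, 0.72 and 0.43 on array 2, and the tubulin gene Tubb4b at 0.39, 0.87 and 0.68. On array 1 their means were 0.01 and 0.09. Further genes with all spots above the median of array 2 were Fyttd1 at 0.79, Chp1 at 0.65, Ttc3 at 0.64 and Clic4 at 0.60. In Fyttd1 and Chp1 a single spot was far higher than its sisters. These sisters were at 0.03 and 0.39 in Fyttd1 and at 0.22 and 0.45 in Chp1. Ttc3 had spots at 0.07, 1.08 and 0.79. The lowest genes of array 2 with all spots on 1 side were Lrrc49 at -0.58, Shc1 at -0.53 and Phf8 at -0.51. After them came Apc and Esr1, each at -0.49, Ltf at -0.48, Ilkap at -0.47 and Rpl23 at -0.45. Apc had spots at -0.28, -0.23 and -0.95, and Esr1 at -0.30, -0.21 and -0.96.

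Genes low on array 1 with all of at least 3 spots on 1 side were, after Col3a1, Tmem30a at -0.66, the lysosomal thioesterase gene Ppt1 at -0.60, Snx5 at -0.57, Dennd5a at -0.54, the ribosome-binding protein gene Rrbp1 at -0.52, the phagocyte oxidase gene Cybb at -0.49 and the adhesion gene Tln1 at -0.49. In Tmem30a, Ppt1 and Snx5 a single spot was far lower than its sisters, as in Ppt1 with spots at -0.22, -0.39, -1.58 and -0.21. High genes were closer to the median: Cd24a at 0.36, Nsmaf at 0.33, Cinp at 0.31, Hint1 at 0.29, Wnk4, the metallothionein gene Mt1 at 0.28, Mdh1 at 0.27 and Fbxl5 at 0.26. The 4 spots of Mdh1, cytosolic malate dehydrogenase, stood at 0.22, 0.34, 0.28 and 0.23, closer together than in most genes.

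**Figure D3:**
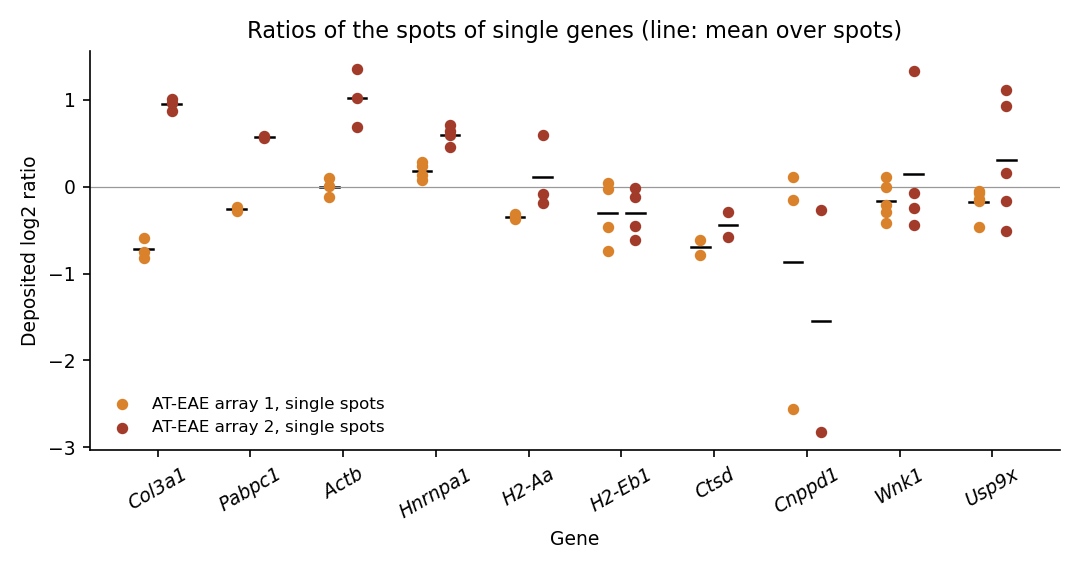
Deposited log2 ratios (vertical axis) of the single spots of 10 genes (horizontal axis) on AT-EAE array 1 and AT-EAE array 2, with a line at the mean over spots. The spots of Col3a1 lie together on opposite sides of 0, from -0.82 to -0.59 and from 0.88 to 1.01, and 1 spot of Cnppd1 lies far below its sisters on both arrays.

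Sides were compared between the arrays as deposited, and since the numerators are unknown, each count of same and opposite sides is exchanged if 1 array is turned. Of 5525 genes, 2995 lay on the same side of both medians, 54.2% (95% Wilson interval 52.9% to 55.5%, which treats genes as independent and covers counting only). Pearson's r across these genes was 0.19 and Spearman's rho 0.16, as a description of genes that share channels and normalization. With 1 array turned the share was 45.8% and r = -0.19. Where a gene lay at least 1 MAD-SD out on both, 417 of 583 (71.5%) were on the same side. Between groups, control array 1 and AT-EAE array 2 shared the side for 62.2% of genes with r = 0.30, and control array 2 and AT-EAE array 1 for 62.1% with r = 0.31. Control array 1 and AT-EAE array 1 gave 54.3% with r = 0.15, control array 2 and AT-EAE array 2 gave 51.1% with r = 0.002, and the control arrays gave 53.4% between them, with r = 0.11. Of the 6 pairs, the AT-EAE pair thus ranked neither highest nor lowest by r as deposited.

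Genes apart on both arrays numbered 66. They were alike for 56 genes (1.01% of 5525), 34 low and 22 high, and opposite for 10 (0.181%), of which 9 were low on array 1. With 1 array turned, 10 would be alike and 56 opposite. Of the 66, 63 rested on 1 valued spot on at least 1 array, as did 71.0% of all 5525 genes. Of the 56, 51 had both control values, and 3 of those were also apart on the same side on both control arrays, 14 on 1 and 34 on neither.

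The 8 most distant genes on the same side with at least 2 valued spots on both arrays are described without regard to that distance, and of these Cnppd1 and Snrnp27 were apart on both. Cnppd1 was at -0.87 and -1.55, with spots at 0.11, -2.55 and -0.15 on array 1 and -0.27 and -2.82 on array 2. The spot that was low on both was also low in control, at -1.14 and -1.68. The spots of the spliceosome gene Snrnp27 were low throughout, at -0.47 and -1.05 on array 1 and at -0.54 and -1.06 on array 2. In control the lower of these spots was at -0.55 on both arrays, and the other at -0.43 and 0.42. The autophagy gene Atg12 was at -0.42 and -0.68, with 1 of its spots near 0 on array 1. Its lower spot was also negative in control, at -0.29 and -0.71.

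The other 5 were high, each short of the distance on at least 1 array. The carrier gene Slc25a5 was at 0.43 and 0.27 on array 1 and 0.90 and 1.15 on array 2. The gene of the fusion ATPase Nsf, needed for vesicle release, was at 0.31 and 0.30 and then at 1.36 and 0.61. The interferon-induced Ifitm3 was at 0.25 and 0.42 and then at 0.42 and 0.71, and the haem oxygenase gene Hmox1 at 0.17 and 0.40 and then at 0.36 and 0.61. Cd24a, a surface protein of B cells and neural cells, was at 0.36 and 0.56. In these 5 genes every spot with a value was positive on both arrays. Ifitm3 was also positive in control, at 0.24 and 0.18, and Cd24a at 0.22 and 0.23, while Hmox1 was at -0.02 and -0.70.

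The 8 most distant genes on opposite sides with at least 2 valued spots on both arrays were mostly low on array 1 and high on array 2, and of these Col3a1 alone was apart on both. The poly(A)-binding protein gene Pabpc1 had spots at -0.28 and -0.23 and then at 0.56 and 0.58. The translation initiation gene Eif5b was at -0.28 and 0.41, Ankrd11 at -0.27 and 0.42, and Zdhhc20 at -0.26 and 0.41. The spots of Ankrd11 were uneven, at 0.09 and -0.62 on array 1 and at 0.18 and 0.66 on array 2. A spot of Zdhhc20 was positive on array 1, at 0.23. Cbfa2t3 at -2.16 and 0.50 and Igfbp5 at -0.60 and 0.41 each rested on 1 far spot. Ikbkg, a regulator of NF-kappaB, was the 1 of the 8 that went the other way, at 0.36 and -0.63. Its spots on array 2 were at -1.13 and -0.12. With 1 valued spot on an array, the most distant were the astrocyte gap junction gene Gja1 at -0.55 and 0.95, Septin3 at -0.57 and 1.31, and Vta1 at -0.50 and 0.83.

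**Figure D4:**
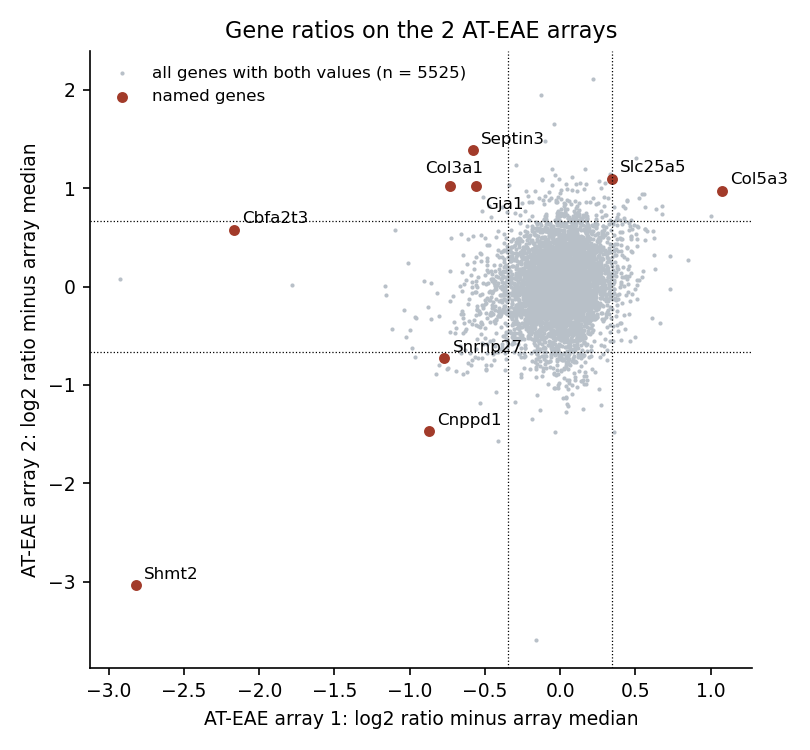
Deviation of each of 5525 genes from the array median on AT-EAE array 1 (horizontal axis, log2 ratio) and AT-EAE array 2 (vertical axis, log2 ratio), with 9 named genes marked and dotted lines at 2 MAD-SD. Genes are spread on all sides of the centre, 54.2% of them on the same side on both arrays, and Col3a1, Gja1 and Septin3 lie in the upper left.

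Across the 5429 genes with values on all 4 arrays, limma called 1 gene (0.0184%) for a mean AT-EAE ratio different from 0 and the same gene (0.0184%) for a difference of the ratio between AT-EAE and control arrays. Signs were taken as deposited. The gene was Shmt2, the mitochondrial serine hydroxymethyltransferase, with a mean of -2.96 (SE 0.14, adjusted p = 1.02e-05) and a difference of -1.94 (SE 0.197, adjusted p = 0.0129). Its values in AT-EAE rested on 1 spot. That spot was also low in control, at -2.06 and -1.83, where a sister spot at 0.06 and -0.25 entered the mean. Fitted by spots, no difference was called, with 366 spots at an unadjusted p under 0.05, and the call of the difference was also lost with arrays scaled by their MAD-SD and with trend and robust (limma, smallest adjusted p of any gene 0.999 and 0.255). At that unadjusted threshold the genes numbered 574 for the mean and 188 for the difference. Without AT-EAE array 1 the calls numbered 328 and 17, without AT-EAE array 2 they were 7 and 4, and without control array 1 they were 3 and 2. Without control array 2 they were 3 and 1. With the replicate number as a block 38 and 6 genes were called, though the numbers are those of extracts and pair no samples.

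Gene lists are described by the deviation of their genes, with 0 as the median of all genes. Values of single genes and spots are deposited ratios, whose array medians were 0.0087 and -0.074. All lists were chosen with earlier results known, and the genes of a list share array and channels. If 1 array were turned, low and high would exchange on it for all genes, and the same-side share of all genes would be 45.8%. Lists of phagocytes, lysosomes and class II presentation lay low on array 1 and near or above the median on array 2. Of 30 lysosomal genes, which break down what a cell takes up, 23 lay below the median on array 1, 7 of them apart (23.3%, beside 6.7% of all genes), with a list median of -0.12. On array 2, 17 of 26 lay above, none apart, with a list median of 0.12. Of the 26 measured on both, 13 were low on array 1 and high on array 2 (50%, beside 22.6% of all genes) and 3 the reverse. The other 10 were on the same side (38.5%, beside 54.2% of all genes, or 61.5% beside 45.8% with 1 array turned).

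Single lysosomal genes showed both patterns. The protease gene Ctsd had spots at -0.78 and -0.61 on array 1 and at -0.29 and -0.58 on array 2, low on every spot of both. In control it was at 0.18 and 0.12. Sgsh, a heparan sulfatase, and the acid lipase gene Lipa were at -0.94 and -0.82 on array 1 and had no value on array 2. Gm2a, an activator of ganglioside breakdown, was at -0.06 and -0.63. Chosen after their values were seen, Psap, the precursor of the saposins, was at -0.52 and 0.45, and Tpp1, a lysosomal peptidase, at -0.18 and 0.39.

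The microglia and macrophage list had 20 of 24 genes below the median on array 1 and 8 of 21 on array 2, with list medians of -0.14 and 0.04. Of the 20 genes on both arrays, 9 went from low to high (45%, beside 22.6% of all genes) and 1 from high to low. The other 10 kept their side (50%, beside 54.2% of all genes, or 50% beside 45.8% with 1 array turned). Fcgr1, the high-affinity Fc receptor, went against the list at 0.48 and 0.60, but was also at 0.53 and 0.47 in control. Cd14, the co-receptor for bacterial lipopolysaccharide, had its single value of the study on AT-EAE array 2, at 0.59. The class II list had 5 of 8 genes measured, with list medians of -0.28 and 0.09. On control arrays 1 and 2 its medians were 0.18 and 0.01. The spots of H2-Aa were at -0.35, -0.31 and -0.37 on array 1 and at -0.19, -0.08 and 0.59 on array 2, so that they were close on array 1 and not on array 2. Those of H2-Eb1 were at -0.74, -0.46, 0.05 and -0.03 on array 1 and at -0.46, -0.11, -0.02 and -0.61 on array 2.

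Complement and acute phase genes had 11 of 13 below the median on array 1, 4 of them apart (30.8%, beside 6.7% of all genes), and 5 of 10 above it on array 2. The list medians were -0.24 and 0.05. Serping1, the inhibitor of the C1 protease, was at -0.72 and 0.42, and the copper carrier gene Cp at -0.36 and 0.37. Cd59a, which blocks the membrane attack complex, was at -0.64 and -0.35, and Clu (clusterin) at -0.24 and -0.59. Itih3 was at 0.43 and 0.03.

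Connective tissue genes kept their side, as deposited, about as often as all genes did, and Col3a1 did not. Of the meninges and fibroblast list, 16 of 24 lay below the median on array 1, 5 apart (20.8%, beside 6.7% of all genes), and 14 of 21 above it on array 2, 2 apart (beside 3.04%), with list medians of -0.18 and 0.26. Of 20 genes on both, 7 went from low to high (35%, beside 22.6% of all genes) and 2 from high to low. The other 11 kept their side, 55% beside 54.2% of all genes, or 45% beside 45.8% with 1 array turned. The collagen gene Col5a3, with 1 spot on the design, was high on both, at 1.08 and 0.90. In control it was at -0.04 and 0.42. Col5a2 was at -0.10 and -0.59, and the proteoglycan gene Dcn was at -0.91 on array 1 with no value on array 2. Schwann cell and nerve root genes, which would mark attached roots, had values on both AT-EAE arrays for 1 of 4 (25%, beside 54.0% of all genes). This was Cdh1, at -0.33 and -0.19. All 4 had values on both control arrays, as did 79.0% of all genes.

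Glial lists differed between the arrays. Astrocyte genes lay above the median for 13 of 15 on array 2, with a list median of 0.17, and on array 1 the list median was 0.02. Gja1 and the lipid phosphatase gene Plpp3 were apart and high on array 2, each on 1 valued spot. Plpp3 was at -0.16 on array 1 and 0.89 on array 2. Oligodendrocyte and myelin genes lay below the median for 8 of 9 on array 1, 3 of them apart (33.3%, beside 6.7% of all genes), with a list median of -0.20, and on array 2 the list median was 0.01. Neuronal genes had list medians of -0.01 and -0.12, with the intermediate filament gene Prph at 0.28 and -0.67 and the tau gene Mapt at -0.46 and -0.36.

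Interferon response, class I and proteasome genes lay high on array 2. Proteasome genes lay above the median for 29 of 37 on array 1 and 26 of 31 on array 2, with list medians of 0.09 and 0.30, and 24 of 31 kept their side (77.4%, beside 54.2% of all genes, or 22.6% beside 45.8% with 1 array turned). On the control arrays the list medians were 0.01 and 0.06. The deubiquitinase subunit Psmd14 was at 0.29 and 0.49, Psma6 at 0.06 and 0.45 and Psmb11, a subunit known from the thymus, at 0.21 and 0.47. Psmd9, an assembly chaperone, was at -0.35 and 0.69, and Psmd5 was at -0.89 on array 1 alone. Class I and immunoproteasome genes lay above the median for 7 of 7 on array 2 and 6 of 8 on array 1, and interferon response genes for 15 of 19 on array 2, with list medians of 0.31 there and 0.07 on array 1. Iigp1 had spots at -0.55, 0.44 and 0.16 on array 1 and at 0.55 and 0.78 on array 2, where another spot had no value.

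Lists of protein synthesis, energy supply and chaperones had medians between -0.15 and 0.11 on both AT-EAE arrays. On control arrays 1 and 2, those of ribosomal proteins were 0.03 and 0.29 and those of oxidative phosphorylation 0.03 and 0.31. Those of the mitochondrial ribosome were -0.04 and 0.09 there, and those of chaperones 0.08 and -0.03. Ribosomal protein genes had list medians of -0.03 and -0.09, with 43 of 59 below the median on array 2 and 28 of 59 low on both (47.5%, beside 26.7% of all genes). Rps6, of the small subunit, was at -0.04 and -0.64, and Rpl27, of the large subunit, at 0.13 and 0.67. Oxidative phosphorylation genes had list medians of 0.09 and 0.02, with 27 of 60 high on both (45.0%, beside 27.5% of all genes). Genes of the mitochondrial ribosome had list medians of -0.02 and -0.15, with Mrpl1 at -0.63 and -0.45. Mrpl39 was at -1.41 on array 1 alone and Mrpl50 at -2.91 and 0.00, each with 1 valued spot on array 1. Heat shock and chaperone genes kept their side for 10 of 27 (37.0%, beside 54.2% of all genes), with the list medians at -0.05 and 0.11. The endoplasmic reticulum chaperone Hsp90b1 was at -0.89 and -0.02, with spots at -1.44 and -0.35 on array 1, and the small heat shock protein Hspb1 at 0.86 and 0.20.

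**Figure D5:**
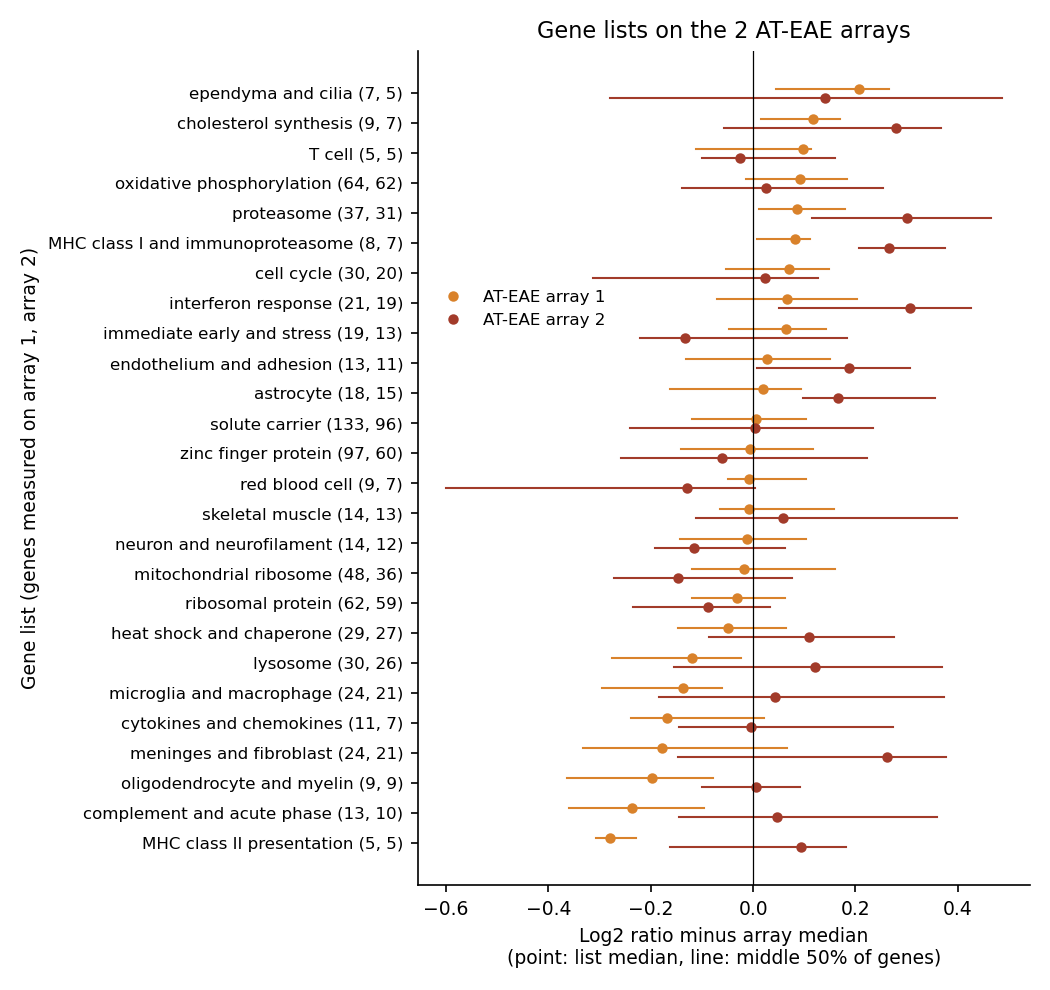
Median deviation (points) and middle 50% of genes (lines) of gene lists with at least 5 genes measured on AT-EAE array 1 and AT-EAE array 2, as log2 ratio minus array median (horizontal axis). Class II, complement, myelin, meninges, macrophage and lysosome lists lie low on array 1 and at or above 0 on array 2, and the proteasome list lies above 0 on both, at 0.09 and 0.30.

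Genes of blood cells are given beside the immune lists, and their part in those lists was not tested. Neutrophil genes lay below the median for 5 of 5 on array 1 and 3 of 4 on array 2, with list medians of -0.20 and -0.45. The granule genes Mpo and Ltf were at -0.51 and -0.08 on array 1 and at -0.66 and -0.48 on array 2, and the alarmin gene S100a8 was at -0.57 on array 2 with no value on array 1. Red blood cell genes had list medians of -0.01 and -0.13, with 2 of 7 apart and low on array 2, beside 3.42% of all genes. These were the haemoglobin genes Hba-a2, at -0.01 on array 1 and -0.87 on array 2, and Hbb-b1, at -0.04 and -0.90, each with 1 spot. Both were positive in control, Hba-a2 at 0.47 and 0.28 and Hbb-b1 at 0.54 and 0.23.

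The numbering of spots moved some list medians. With the place in the cycle subtracted, 10 of 52 list medians moved beyond their spread, and with neighbouring spots subtracted 8 moved and 1 of at least 0.1 in size changed sign. On array 2 the class I list went from 0.27 to 0.10 with neighbours subtracted, and the class II list from 0.09 to 0.21 with the cycle and -0.047 with neighbours subtracted. The complement list on array 2 went from 0.05 to 0.16 and the heat shock list from 0.11 to 0.01 with the cycle subtracted, and on array 1 the complement list went from -0.24 to -0.14 with neighbours subtracted. The red blood cell list on array 2 went to -0.19 and -0.22 under the cycle and neighbour subtractions. The lists of macrophages (-0.10 and -0.13), lysosome (-0.13 and -0.13) and meninges (-0.15 and -0.14) on array 1, and of proteasome (0.26 and 0.26) and interferon response (0.32 and 0.32) on array 2, kept their sign under both. The cell cycle, muscle, solute carrier and zinc finger lists had medians between -0.06 and 0.07 on both arrays before any subtraction.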

How the data were processed

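The deposited values were read from the series' value table for 4 arrays. Per the labels, signals of the 2 channels were normalized. The deposited values are taken as log2 ratios, since they were signed with a median within 0.1 of 0 on every array. The sources used here do not give the base, numerator, background correction, spot filter, normalization method or software. Brightness over background was not analysed. Columns of no sample used numbered 0.

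Of 28704 spots, 18511 had 1 gene in the platform's annotation, 937 several and 9256 none. Symbols were updated to GRCm38.p6, and spots with several genes or none were not named. Missing values were neither imputed nor set to 0. Arrays were grouped by their labels, and nothing says that pools came from separate experiments, so p-values measure only the spread between these arrays.

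Members, the 29 gene lists and tests were chosen with earlier results of these data known. Families such as ribosomal proteins, proteasome and Zfp genes were taken by symbol prefix, which admitted Psmc3ip. Named genes were the 8 most distant alike and 8 opposite genes with at least 2 valued spots on both arrays, and the 3 with 1 valued spot. Also named were the 8 lowest and 8 highest with at least 3 spots on 1 side, the 5 closest and 5 widest by spots, up to 5 members of a list, genes empty in AT-EAE and genes called by limma.

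Gene ratios were compared by exact permutation over arrays and by limma 3.58.1 (R 4.3.3) with Benjamini-Hochberg adjustment at 0.05 on genes with values on all 4 arrays, which leaves 2 residual degrees of freedom. The scripts were tested on simulated data. Tables and figures were made in Python 3.11.15 (scipy 1.17.1, pandas 2.3.3, matplotlib 3.10.9, numpy 2.4.6). Same-numbered arrays of the groups had deviations correlated at -0.287 over 5429 genes, and the numbers are those of extracts, so they pair no samples. The alternatives included other distances, spots in place of genes, genes with more spots and leaving out each array.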

Additional observations from a re-analysis of the deposited data

Results flagged for a closer look

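Shmt2 differed between the groups in the ratio of the channels, by -1.94 in limma (AT-EAE minus control, adjusted p = 0.0129). The call was lost in limma by spots (0 called), with each array scaled by its MAD-SD (smallest adjusted p = 0.999) and with trend and robust (0.255). The AT-EAE values rest on the single spot described above, and that spot was at -2.06 and -1.83 in control and at -2.81 and -3.11 in AT-EAE, lower on both AT-EAE arrays than on either control array. The difference of -1.94 compares these with control means that include a sister spot without values in AT-EAE.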

How the results depend on the processing

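The share of genes with a value on both AT-EAE arrays was 36.4% by spots, 70.7% for genes with at least 2 spots, and 54.9% to 72.4% with 1 AT-EAE array left out. Leaving out 1 array at a time moved the difference of the MAD-SD between groups between -0.028 and 0.131. At 1.5 and 3 MAD-SD and with at least 2 valued spots, genes apart numbered 1291, 226 and 183 on array 1, 831, 58 and 79 on array 2, 145, 3 and 7 alike on both, and 38, 3 and 2 opposite. For the counts with at least 2 valued spots, the median and MAD-SD were taken over those genes alone. At the distances set over all genes, 140 such genes were apart on array 1, 43 on array 2 and 3 on both. Absolute ratios of at least 0.58 were found for 159 and 570 genes. Ratios of at least 1 on at least 2 valued spots were found for 4 and 5 genes, and on array 1 for 13 genes with values on all 4 arrays. The same-side share was 71.5% for genes at least 1 MAD-SD out. The correlation of the 2 arrays was 0.16 by Spearman, 0.12 with at least 2 valued spots, 0.16 with the place in the cycle subtracted and 0.17 with neighbours subtracted. Both subtractions were chosen after seeing the data. The median SD between spots per gene was 0.142 and 0.238, and with at least 3 spots the sister correlation on array 2 was 0.193. Calls by limma for the mean and the difference numbered 3 and 0 by spots, 38 and 6 with the replicate block, 1 and 0 with arrays scaled by their MAD-SD or with trend and robust, and 3 to 328 and 1 to 17 with 1 array left out, where the lone array of a group is assumed to vary like the other group. With crossed numbers as the block, chosen after seeing the data, 1 gene was called for each. List medians kept their value within the spread in 322 of 416 comparisons. The sign changed in 65, of which 62 were medians within 0.1 of 0. Among larger medians it changed for cholesterol synthesis on array 2 (-0.12 with at least 2 valued spots) and for immediate early genes there (0.48 with at least 2 valued spots, 0.057 with neighbours subtracted). The causes were not tested. For list medians, subtracting the mean of the control arrays was among the comparisons. It moved 27 medians beyond their spread and left 25 within it, and the sign changed in 15. For the same-side shares and the correlation of the 2 arrays this subtraction was not run, since both would then share control values. Signal over background, which limits dim spots, is unknown.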
